A study of Mus musculus with 2 samples.

Results

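The genes described here are 10 members of the myogenic programme of skeletal muscle: the MyoD family of myogenic regulatory factors (Myod1, Myog, Myf5 and Myf6), the paired-box factors Pax7 and Pax3, the myocyte enhancer factors Mef2a, Mef2c and Mef2d, and Cdh15 (M-cadherin). Members were chosen by name: each non-control probe whose gene name in both scanner files was 1 of the 10 was taken, which gave 15 probes in 51 spots per array, of 55680 probes under 35018 gene names in all. The data are 1 one-colour array per group, each of total RNA from the skeletal muscle of CD2F1/Slc males at 11 weeks of age. The C26 array holds muscle of a cachexia model, in which 1000000 cells of the colon 26 (C26) carcinoma in 100 µL of PBS were placed under the skin of the flank. The control array holds muscle after an injection of PBS alone. No transgene, deletion or drug is named for either group, and the sources used here do not give which muscle was taken, the time after implantation or whether RNA of several mice was pooled. The series concerns the weak response of cachectic muscle to mechanical loading. With 1 array per group no test was possible, so every ratio below describes this pair of arrays, and its error covers the measurement of spots alone.

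The MyoD family are basic helix-loop-helix transcription factors that bind E-boxes together with E proteins and switch on muscle genes. MYF5 and MYOD act early in myoblasts, myogenin drives their differentiation and fusion, and the product of Myf6 is the family member kept at a high level in adult myofibres. PAX7 marks satellite cells, the stem cells that lie beside the myofibre, PAX3 is its close relative in embryonic muscle precursors, M-cadherin sits where satellite cell and fibre touch, and MEF2 proteins act with the MyoD family on muscle promoters. In adult muscle, Myog is also known to be induced by denervation, and myogenin then activates the ubiquitin ligase genes Fbxo32 and Trim63.

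The stretch upstream of the start site is shown for Myog and Cdh15, which were higher in the C26 array, and for Pax7. The log2 ratio of Pax7 was -0.20, smaller in size than its error of 0.25. These stretches are shown since MyoD family and MEF2 proteins are known to act on muscle promoters. Promoter sequences are from RefSeq (GRCm38.p6), whose table matched 7 of the 10 members in 9 entries; Myod1, Myf6 and Pax3 had no entry. Each line runs 5′ to 3′ on the strand of the gene over the 250 bases before the start site, with capitals at the motifs that were searched for on both strands. Myog lies at chr1:134289754-134290003 on the plus strand, Cdh15 at chr8:122848124-122848373 on the plus strand and Pax7 at chr4:139832969-139833218 on the minus strand.
Myog: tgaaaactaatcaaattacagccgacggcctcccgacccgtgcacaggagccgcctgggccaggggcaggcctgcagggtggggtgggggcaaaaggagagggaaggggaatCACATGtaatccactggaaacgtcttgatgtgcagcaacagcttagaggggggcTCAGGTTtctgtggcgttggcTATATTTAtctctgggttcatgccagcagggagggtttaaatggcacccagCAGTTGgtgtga
Cdh15: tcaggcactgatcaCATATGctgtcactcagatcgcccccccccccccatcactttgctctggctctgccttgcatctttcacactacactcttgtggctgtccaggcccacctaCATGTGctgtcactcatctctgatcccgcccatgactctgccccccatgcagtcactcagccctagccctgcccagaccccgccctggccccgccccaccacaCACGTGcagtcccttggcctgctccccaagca
Pax7: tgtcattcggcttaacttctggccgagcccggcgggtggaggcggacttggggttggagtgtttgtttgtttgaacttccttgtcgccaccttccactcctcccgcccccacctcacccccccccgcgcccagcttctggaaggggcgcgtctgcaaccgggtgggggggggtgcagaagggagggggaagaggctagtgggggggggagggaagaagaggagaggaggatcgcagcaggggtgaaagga

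In the Myog stretch the capitals mark 2 E-boxes (CANNTG), at -138 to -133 and -12 to -7 from the start site, a MEF3 motif (TCAGGTT) at -84 to -78, and a MEF2 core (TA, then 4 letters that are each A or T, then TA) at -63 to -56. The full MEF2 consensus, which contains that core, had no match there, and the core was added to the search after this was seen. The capitals in the Cdh15 stretch mark 3 E-boxes, and the Pax7 stretch held none of these motifs. Of 32851 promoter stretches of the same length, 66.2% held an E-box, 31.8% at least 2 and 12.2% at least 3, while 3.49% held the MEF3 motif, 8.56% the MEF2 core and 2.92% the full MEF2 consensus. Among the other entries, those of Mef2a, Mef2d and Myf5 held none. Of the 3 Mef2c entries, 1 held 2 E-boxes, a MEF3 motif and a MEF2 core, another held an E-box, and the third held none. Mef2c had the lowest log2 ratio of the measured members, -0.25. A match describes letters and is no evidence of binding.

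Of the 59305 non-control spots on each array, 53.8% on the C26 array and 50.4% on the control array were well above background, and 0 were saturated. Values are spot intensities after background subtraction by the scanner software. Each array was divided by its 75th percentile over probes, an intensity of 249.5 on the C26 array and 262.3 on the control array, which adds 0.07 to every log2 ratio of C26 over control. A probe was counted as measured where it was well above background on both arrays, which held for 26781 probes. Their median log2 ratio was 0.04, their 5th and 95th percentiles were -0.58 and 0.56, and the median error of a ratio was 0.21.

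Myod1 and Myog were at least 2-fold higher in the C26 array, Cdh15 was 1.57-fold higher, and the remaining measured members lay within 1.5-fold. Of the 15 member probes, 13 were measured, for 9 of the 10 genes; the Myf5 probe and 1 of the 2 Pax3 probes were not well above background on either array. At least 2-fold higher in the C26 array were 2 of the 13 measured probes, against 1.16% of all measured probes, and none was at least 2-fold lower, against 1.14%. The median over the 13 was 0.23, and 11 had a ratio above 0, beside 56.2% of all measured probes. By the brightest probe of each gene, 7 of 9 members lay above 0, beside 56.4% of 19767 measured genes. In 3 probes, those of Myod1, Myog and Cdh15, the ratio was more than 2 times its own error away from 0.

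**Figure D1:**
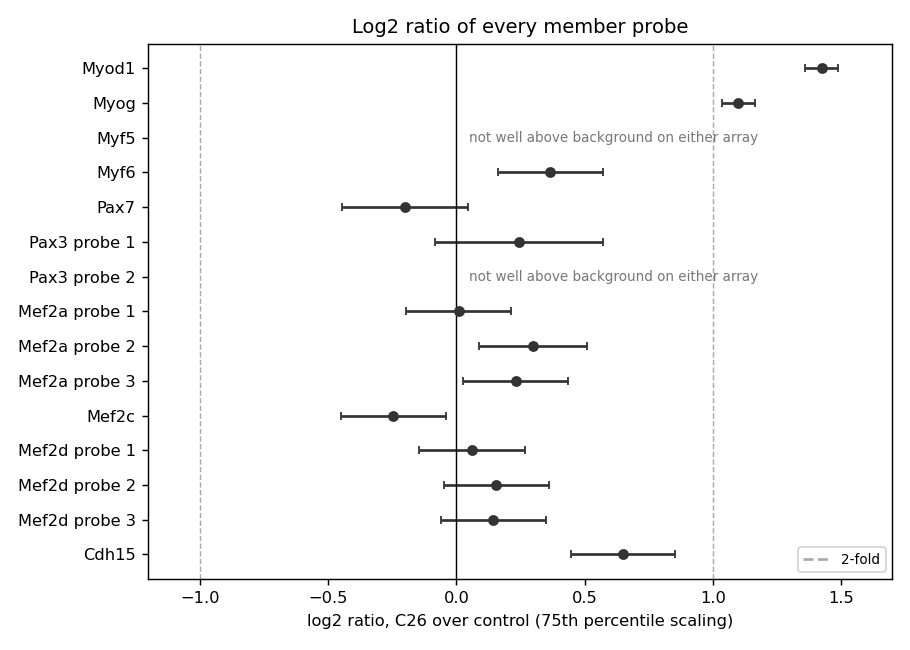
Log2 ratio of C26 over control (horizontal axis, 75th percentile scaling) for each of the 15 member probes (vertical axis), with the scanner's error of the ratio as the bar and dashed lines at 2-fold. Myod1 at 1.42 and Myog at 1.10 lie past the 2-fold line, Cdh15 at 0.65 lies between, and the other measured probes lie between -0.25 and 0.37.

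Myod1, the factor that can turn other cells into muscle, was measured by 1 probe printed in 10 copies (chromosome 7, 53633956 to 53634015, mm9, designed to NM_010866). Its processed signal over the 10 spots had a lowest value of 1580, a median of 1647 and a highest value of 1726 on the C26 array, against 592.3, 646.4 and 672.7 on the control array. The spots of the arrays did not overlap, and each of the 10 positions was at least 2-fold higher on the C26 array, with log2 ratios from 1.37 to 1.49. The log2 ratio of the probe was 1.42 (error 0.06), or 2.68-fold, and 128 of the 26781 measured probes had a higher one. The standard deviation between spots, on the log2 scale, was 0.05 on the C26 array and 0.06 on the control array; copies of a probe share the RNA and give no error for animals.

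Myog encodes myogenin, the differentiation factor of the family. Its probe, also in 10 copies (chromosome 1, 136188874 to 136188933, mm9, designed to NM_031189), had signals with a lowest value of 878.0, a median of 982.1 and a highest value of 1035 on the C26 array, against 443.9, 478.2 and 512.7 on the control array. Here too the spots did not overlap, and all 10 positions were at least 2-fold higher, with log2 ratios from 1.04 to 1.19. The probe's log2 ratio was 1.10 (error 0.06), or 2.14-fold, with 237 measured probes above it. It stood close to the 2-fold line and fell just short of it, at 0.98, under normexp background correction, which adds an offset to all signals.

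The other family members gave no such ratio. Myf5, the early myoblast factor, had 0 of 10 usable spots well above background on the C26 array and 0 of 9 on the control array (chromosome 10, 106919974 to 106920033, mm9). Its signals ran from 2.86 to 12.5 with a median of 4.30 on the C26 array and from 3.77 to 7.77 with a median of 4.45 on the control array, both under the lowest signals counted as well above background, 14.1 and 18.5, so no fold is given. Myf6, its neighbour on chromosome 10 (probe at 106930237 to 106930296), had a signal of 8713 on the C26 array against 7107 on the control array in 1 spot each. That is a log2 ratio of 0.37 (error 0.20), or 1.29-fold, and 3342 measured probes had a higher one.

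**Figure D2:**
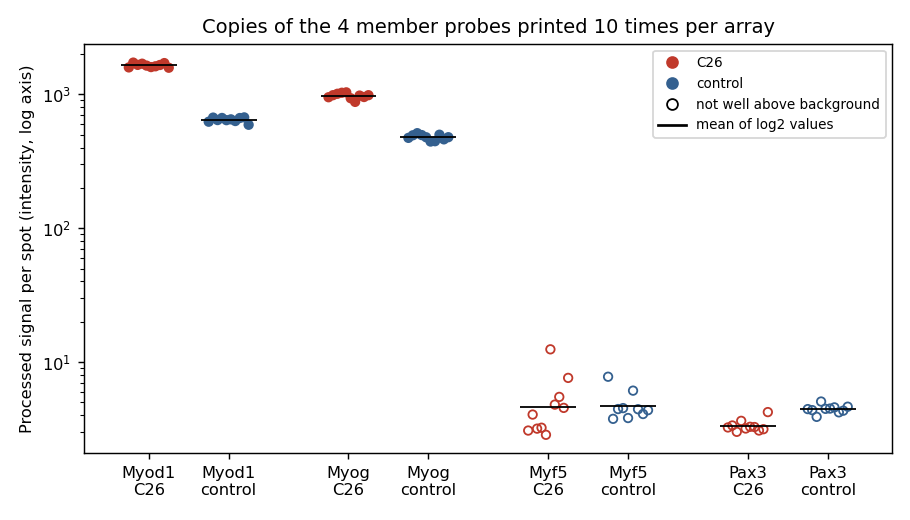
Processed signal of each usable spot (vertical log axis, intensity) for the 4 member probes printed 10 times, with C26 spots left of control spots for each gene, open symbols for spots not well above background and a line at the mean of the log2 values. Myod1 spots lie at 1580 to 1726 on the C26 array against 592.3 to 672.7 on the control array and Myog spots at 878.0 to 1035 against 443.9 to 512.7, while all Myf5 spots and those of the second Pax3 probe are open.

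Of the satellite cell genes, Cdh15 was higher in the C26 array and no difference was detectable for Pax7. Cdh15 (1 spot, chromosome 8, 125391031 to 125391090, mm9) had a signal of 1754 on the C26 array against 1176 on the control array. Its log2 ratio of 0.65 (error 0.20) was the third highest of the members, past 1.5-fold, which 4.48% of all measured probes reached in that direction and 4.86% in the other. At 3-fold, which 0.344% of all measured probes reached upward and 0.235% downward, no member was left. Pax7 (1 spot, chromosome 4, 139294364 to 139294423, mm9) had 53.2 on the C26 array and 64.3 on the control array. Its log2 ratio of -0.20 was smaller in size than its error of 0.25, and both signals were dim, so that a difference of this size was not detectable. In whole muscle, fewer cells of a type and less RNA per cell cannot be told apart.

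Pax3 had 2 neighbouring probes on chromosome 1. The probe at 78099294 to 78099353 (mm9) was well above background in its single spot, with 32.0 on the C26 array and 28.4 on the control array and a log2 ratio of 0.24 (error 0.33). The probe at 78099476 to 78099535 had none of its 10 spots well above background on either array, with medians of 3.26 on the C26 array and 4.46 on the control array. The probes thus did not give the same call on whether Pax3 was detected, and the detected one rests on 1 dim spot.

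The 3 MEF2 genes, whose proteins act as partners of the MyoD family and as effectors of calcium signals in fibres, had log2 ratios between -0.25 and 0.30. Mef2d had 3 probes on chromosome 3 (mm9): at 87972214 to 87972560 the signal was 309.6 on the C26 array and 312.3 on the control array, at 87972971 to 87973030 it was 776.3 and 732.9 on the C26 and control arrays, and at 87975777 to 87975836 it was 11506 and 10950 on the C26 and control arrays. Their log2 ratios were 0.06, 0.16 and 0.14, with a mean of 0.12 and a standard deviation between probes of 0.05. The Mef2d probes thus differed among themselves by less than the error of any of them, 0.20 to 0.21.

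Mef2a also had 3 probes, on chromosome 7 (mm9), whose signals were 1074 at 74376573 to 74376632, 161.8 at 74378751 to 74378810 and 2573 at 74379575 to 74379634 on the C26 array, against 1123, 138.2 and 2304 on the control array. The log2 ratios were 0.01, 0.30 and 0.23, with a mean of 0.18 and a standard deviation between probes of 0.15. The first, designed to an Ensembl transcript, lay below 0 under 6 of 7 other ways of processing. Mef2c had 1 probe on chromosome 13 between 83772788 and 83775025 (mm9, designed to NM_025282), with a signal of 1216 on the C26 array and 1515 on the control array and a log2 ratio of -0.25 (error 0.20), the lowest of the measured members. That probe and the first of Mef2d span 2238 and 347 bases of genome where the other member probes span 60, so the parts of their targets lie apart in the genome.

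**Figure D3:**
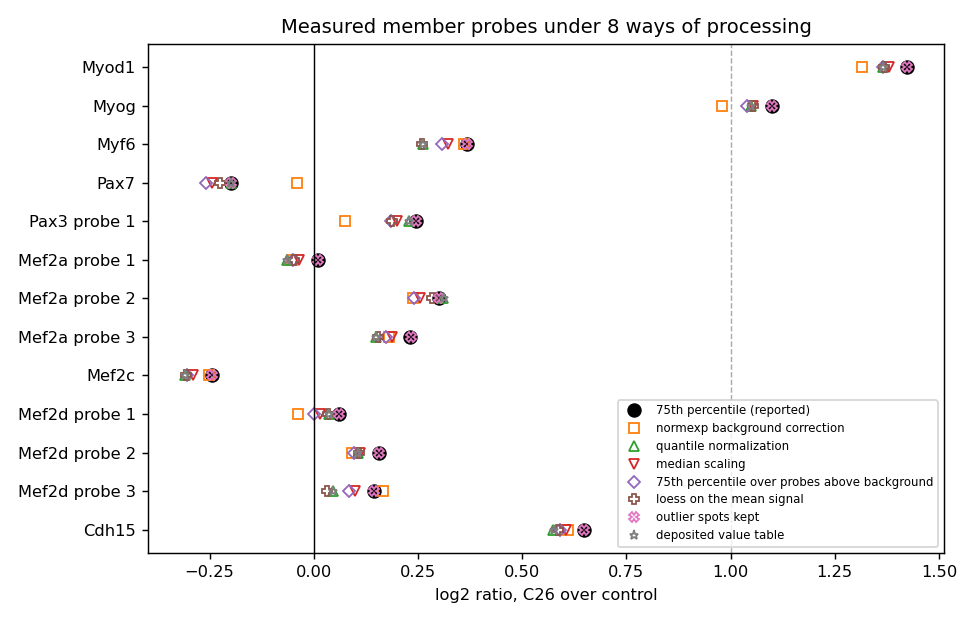
Log2 ratio of C26 over control (horizontal axis) of the 13 measured member probes (vertical axis) under the reported scaling and 7 other ways of processing, with a dashed line at 2-fold. Myod1 stays between 1.31 and 1.42 and Myog between 0.98 and 1.10, while the first probes of Mef2a and Mef2d lie on either side of 0.

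Genes that act with the members were read from lists by the brightest probe of each gene, where 1.24% of all measured genes passed 2-fold upward in the C26 array and 1.16% downward. Of the partners and inhibitors of the MyoD family, 21 of 24 were measured, none was 2-fold different, and the median was -0.10, beside 0.04 over all measured genes. The E proteins, with which the family binds DNA, had log2 ratios of 0.21 (Tcf3), -0.09 (Tcf12) and -0.10 (Tcf4). The Id proteins, which take E proteins away from them, were split: Id1 had the highest ratio of the list, 0.88 (error 0.20, signals of 1676 in C26 and 957.8 in control), and Id3 stood at 0.46, whereas Id4 had -0.04 and Id2 -0.37. Twist1, a helix-loop-helix factor that opposes MYOD, was the lowest at -0.82 (error 0.26, signals of 30.8 in C26 and 57.2 in control). The Notch target Heyl and the circadian repressor Bhlhe41 followed at -0.73 and -0.69. Under normexp correction Twist1 had -0.39 and was not the lowest, with Heyl at -0.58 and Bhlhe41 at -0.50.

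Among regulators and partners of MEF2, 35 of 37 were measured, with a median of -0.0036. Sik1, a kinase that phosphorylates class IIa histone deacetylases, was at least 2-fold higher at 1.16 (error 0.21, signals of 297.8 in C26 and 140.0 in control), and Hdac9, a class IIa deacetylase that represses MEF2, was 2-fold lower at -1.59 (error 0.22, signals of 72.1 in C26 and 228.2 in control). Under normexp correction both lay within 2-fold, at 0.90 and -0.96. The other class IIa members stood at 0.95 (Hdac4, signals of 1158 in C26 and 628.3 in control), 0.43 (Hdac5) and 0.0039 (Hdac7), a sign that turned under 6 of 7 other ways of processing. Vgll2, a muscle co-factor of TEAD proteins, had 0.85, and Tead4 had 0.87 (error 0.28, signals of 57.7 in C26 and 33.1 in control), which was 0.36 under normexp correction.

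Of 29 measured satellite cell and myoblast genes other than the members, none was 2-fold different, and the median was -0.06. Above 0 lay 11 and below it 18, beside 56.4% of all measured genes above 0. The count above 0 was 8 with quantile normalization and with the deposited table. Dlk1, a Notch-like surface protein, was the highest at 0.47 and Cd34, also a marker of endothelial and stromal cells, the lowest at -0.80, although a second Cd34 probe gave -0.11. Among the surface receptors of the list, Megf10 had -0.79, Notch1 -0.69 (error 0.21), Cxcr4 -0.69, Fgfr4 -0.43, Notch2 -0.37, Notch3 -0.06 and Fgfr1 -0.02. Above 0 were Met at 0.17, the integrins Itga7 at 0.11 and Itgb1 at 0.10, and the syndecans Sdc3 at 0.10 and Sdc4 at 0.46. The signals of Megf10 and Cxcr4 were dim, and their ratios were -0.38 and -0.28 under normexp correction. Calcr, the calcitonin receptor, had -0.78 (error 0.36) from dim signals of 18.3 in C26 and 33.1 in control, and -0.23 under normexp correction.

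Of the genes of differentiation and fusion, 33 of 35 were measured, with 1 past 2-fold in each direction and a median of 0.0067 that lay below 0 under 5 of the 7 other ways of processing. Cdkn1a (p21), the cell cycle inhibitor of differentiating myoblasts and of stressed cells, was the highest at 1.85 (error 0.06, signals of 1482 in C26 and 431.1 in control). Mymx, the fusion peptide myomixer, was the lowest at -1.05 (error 0.32, signals of 21.5 in C26 and 46.7 in control), which normexp correction brought to -0.38, and Mymk, its partner myomaker, had -0.37. Nphs1 was well above background in control alone and was at least 5.88-fold lower in C26, in 1 spot per array. The embryonic myosin Myh3 stood at -0.29 and cardiac actin Actc1, of embryonic and regenerating fibres, at -0.85, while the structural genes Acta1 and Ckm had 0.04 and 0.05, signs that turned under 5 and 2 of the 7 other ways of processing.

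Of the genes that respond to denervation or are bound by myogenin in denervated muscle, 23 of 24 were measured, 4 passed 2-fold upward and 2 downward (1 under normexp correction), and the median was 0.14, or 0.01 with quantile normalization and with the deposited table and 0.02 with loess. Those higher were Fbxo32 (atrogin-1) at 2.58 (error 0.06, signals of 8420 in C26 and 1484 in control), Cdkn1a, Trim63 (MuRF1) at 1.75 (error 0.20, signals of 35779 in C26 and 11154 in control) and Gadd45a, a stress gene that rises in denervated muscle, at 1.23 (error 0.20). Those lower were Hdac9 and Pfkfb3, a regulator of glycolysis, at -1.47, whose second probe gave -0.21. The acetylcholine receptor subunits, known targets of the MyoD family at E-boxes, did not have 1 direction. Chrna1 had a log2 ratio of 0.46 and Chrnb1 0.16, against -0.23 for Chrne and -0.24 for Chrnd. For Chrnb1, Chrne and Chrnd the errors, 0.20 to 0.21, were near the size of the ratios. The fetal subunit Chrng had -0.67 (error 0.31, signals of 29.7 in C26 and 49.7 in control), and -0.28 under normexp correction. Runx1 and Ncam1, both induced by denervation, had -0.71 and -0.18. The Runx1 signals were dim (error 0.23, 49.6 in C26 and 85.2 in control), and its ratio was -0.39 under normexp correction. Sln and Hdac4, of the same list, had 0.96 and 0.95. Dach2, a repressor of Myog, was well above background in C26 alone, with signals of 15.9 in C26 and 14.1 in control, and no fold is given.

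**Figure D4:**
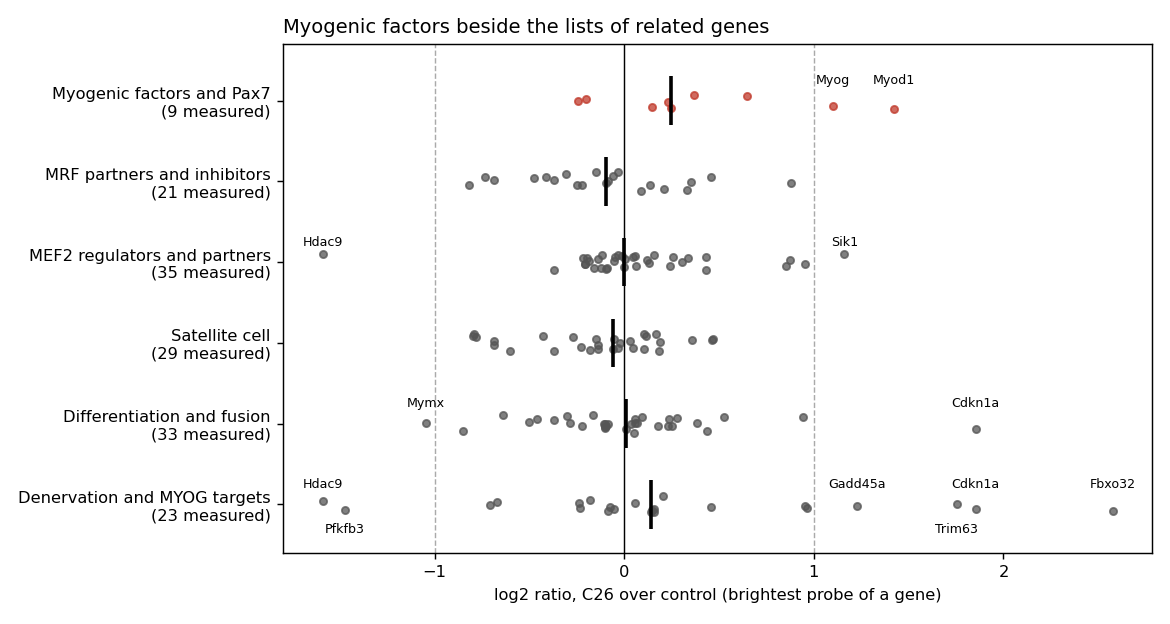
Log2 ratio of C26 over control (horizontal axis) of each measured gene by its brightest probe, for the 9 measured members and 5 lists of related genes (vertical axis), with the median of each list as a bar and genes past 2-fold named. The median of the members is 0.24, against -0.10 to 0.14 in the lists, some of which share genes such as Hdac9 and Cdkn1a. The 0.24 is the value of Pax3, from 1 dim spot per array (error 0.33), and that value is 0.08 under normexp correction. The 0.14, of the denervation list, is 0.01 with quantile normalization.

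Markers of other cell types were read in the same RNA. All 12 myofibre markers were measured on both arrays, with a median of 0.04 that lay between -0.12 and 0.04 under other ways of processing. The satellite cell marker list, which holds Pax7, Cdh15 and Myf5, had 9 of 10 genes measured and a median of -0.20. Of these genes 3 lay above 0 and 6 below 0, beside 56.4% of all measured genes above 0. The summed signal of the list, in units of each array's 75th percentile, was 52.7 in C26 and 48.6 in control. The largest part of that sum came from 1 probe, that of Itga7, with signals of 9486 in C26 and 9215 in control. Fibroblast markers had a median of -0.48 over 12 of 13, 3 of them at least 2-fold lower, with a summed signal of 1073 in C26 and 1461 in control, and macrophage markers -0.23 over 11 of 12, with 47.0 in C26 and 58.8 in control. Of the macrophage markers 2 were at least 2-fold lower, a count of 1 under normexp, where Ms4a7 stood at -0.89, and of 3 under 5 of the 7 other ways of processing, where Lyz2 passed the threshold. Erythroid markers had a median of 1.66 over 7 of 11, 5 of them at least 2-fold higher, with 2559 in C26 and 1326 in control. Endothelial markers had a median of 0.26 over 12 of 12, with summed signals of 156.9 in C26 and 122.5 in control. By the brightest probe 12 of them lay above 0, beside 56.4% of all measured genes. The count was 9 or 10 under 5 of the 7 other ways of processing, where Cdh5 and Kdr among others turned sign. Other measured probes of Kdr and Ptprb gave ratios down to -0.63 and -0.29. Of 10 epithelial and carcinoma markers 5 were not well above background on either array, Epcam and Cdx2 among them. The 5 measured ones were Lgals4 at 0.58, Cldn7 at 0.53, Krt18 at 0.11, Cdh1 at -0.02 and Krt19 at -0.84. The part of these differences in the ratios of the myogenic genes was not tested.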

How the data were processed

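Skeletal muscle RNA was labelled with Cy3 and hybridised to 1 one-colour Agilent array per group, per the labels. The deposited scanner values are spot intensities made by Agilent Feature Extraction 10.7.1.1, per the file headers, whereas the submitters' processing notes list 9.5.1.1; background subtraction used spatial detrending, signals were then detrended multiplicatively, and low spots carry a surrogate value, per the file headers. Spots flagged as outliers were left out, log2 signals of a probe's spots were averaged, the 75th percentile over non-control probes was subtracted, and C26 minus control was taken. A probe was above background where over 50% of its usable spots were flagged so, and a gene was read by its brightest probe. The error is the scanner's signal error carried to the log2 scale. Probe positions are those of the files (mm9). The accession or symbol of 30815 of 55680 probes was found in the RefSeq gene list (GRCm38.p6), which served for names; the others kept the name in the file.

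With 1 array per group no test was run, and the number of arrays limits the precision. An "at least" fold sets the brighter array's value against a floor on the other array: the dim probe's own value or, if higher, the smallest one flagged as well above background. Genes named are all members and, from each list, those past 2-fold, the highest and the lowest, with further list genes chosen after their values were seen. The members and lists were chosen with earlier results of these data known. The alternatives were normexp (offset 50), quantile, median, loess (span 0.3) and restricted 75th percentile scaling, filters on dim probes, outlier spots kept, probe means, thresholds of 1.5-fold and 3-fold, and the deposited table of 1 intensity per probe. The sources used here do not give the processing of that table, which was linear, with a median of 19.75 in both columns. Its log2 values correlated with the log2 processed signals across probes at 0.9997 (C26) and 0.9998 (control). For 72.7% (C26) and 72.8% (control) of probes they lay within 0.01 of the quantile-normalized values. The deposited table and quantile normalization are therefore not independent among the other ways of processing. Python 3.11.15, numpy 2.4.6, pandas 2.3.3, matplotlib 3.10.9, R 4.3.3 and limma 3.58.1 were used, and the ratios were tested on simulated data.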

Additional observations from a re-analysis of the deposited data

How the results depend on the processing

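The count of measured member probes at least 2-fold higher in the C26 array was 2. It was 1 with normexp background correction, where Myog had a log2 ratio of 0.98 and 0.58% of all measured probes were called. With a threshold of 3-fold it was 0 (0.344% of all measured probes), and with 1.5-fold, which adds Cdh15, it was 3 (4.48%). Under the other alternatives it was 2, beside 1.00% to 1.16% of all probes, or 4.71% with no filter on dim probes. The count at least 2-fold lower was 0 under each alternative, beside shares of all probes from 0.235% (3-fold threshold) to 4.86% (1.5-fold threshold). Of the 9 measured members, 7 had a ratio above 0 in each of the other scalings and with the mean over probes. The share of all measured probes above 0 ran from 47.6% (restricted 75th percentile) to 56.2% (outlier spots kept) in those scalings. With no filter on dim probes 8 of 10 members lay above 0, beside 43.6% of all probes. With the stricter filter 6 of 7 did, beside 62.5% of the probes kept. Of the single-probe and single-gene ratios under other settings, 91 moved by less than the scanner's error and 2 by more, both of them under normexp: Myod1 at 1.31 and Myog at 0.98, whose errors of 0.06 are small because 10 spots were averaged. The cause was not tested. Signal over background limits Myf5, Pax3 and Pax7. No paired analysis was possible because each group has 1 array.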

Other observations

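Several genes of the lists had measured probes that gave different ratios of C26 over control. Ckb, the brain-type creatine kinase of myoblasts, had a log2 ratio of 0.06 by its brightest probe and -1.05 by another. Tead1, a partner of VGLL co-factors, had probes from -0.20 to 0.29. Zeb2, a repressor that binds E-box-like sites, had -0.22 by its brightest probe and 0.08 by another, and Nfatc3, a calcineurin-dependent factor, had probes from -0.06 to 0.47. Ncam1, a surface molecule of myoblasts and denervated fibres, was below 0 by all 3 measured probes, from -0.57 to -0.17. Cdon and Boc, co-receptors through which cell contact promotes myoblast differentiation, had -0.64 and -0.50, and both measured Cdon probes lay below 0, at -0.64 and -0.49. Lmod2, an actin nucleator of thin filaments, stood at 0.94 (signals of 456.1 in C26 and 249.4 in control), just under 2-fold.

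Other markers in the same RNA were those of adipocytes, with a median of 0.35 over 10 of 10 measured and none 2-fold different. Neutrophil markers had a median of 1.32 over 5 of 10. At least 2-fold higher were 3 of them, S100a8 at 2.46, S100a9 at 2.35 and Lcn2 at 1.32, while Camp stood at -0.02 and Csf3r at -0.26. The summed neutrophil signal, in units of each array's 75th percentile, was 113.0 in C26 and 128.3 in control. The largest part of that sum came from 1 probe, that of Csf3r, with signals of 26235 in C26 and 33121 in control. Lymphocyte markers had a median of -0.08 over 7 of 10. Of these, 1 was at least 2-fold lower, Gzma at -1.07 (-0.47 and a count of 0 under normexp correction). The medians were -0.03 over 10 of 10 for Schwann cells and 0.11 over 5 of 10 for epithelium and carcinoma.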
